A study of Mus musculus with 46 samples.

Results

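The effect of Pbrm1 disruption was compared between tumors driven by the synovial sarcoma fusions SS18::SSX1 and SS18::SSX2 in mice, using 30 of the 46 tumors that were sequenced. The comparison is the difference of 2 differences: the change from hSS1 control to hSS1;Pbrm1-fl tumors minus the change from hSS2 control to hSS2;Pbrm1-fl tumors. It is called the interaction below, and a positive value means that the Pbrm1-fl effect was higher in hSS1. The libraries were chosen by their titles, which gave 5 hSS1 control, 4 hSS1;Pbrm1-fl, 13 hSS2 control and 8 hSS2;Pbrm1-fl tumors. All of these mice carried a silent human fusion gene at Rosa26 (hSS1 for SS18::SSX1, hSS2 for SS18::SSX2), which Cre protein fused to a TAT peptide, injected into the limb at 8 days of age, switched on. In the Pbrm1-fl groups both Pbrm1 alleles also carried loxP sites around exon 11, so that the same Cre could remove that exon, and the controls carried the fusion gene alone. Mice of both sexes were of a mixed CB57Bl/6-svJ strain and 2 to 6 months old, and RNA came from whole fresh-frozen tumor tissue. Recombination of the fusion locus and of Pbrm1 are separate events in a cell, so a tumor cell can carry the fusion and an intact Pbrm1 allele. Levels are CPM, read counts as a share of the library total scaled by TMM factors, 1 library per tumor, and every adjusted p-value is a Benjamini-Hochberg value over 21725 genes from edgeR's quasi-likelihood test.

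BAF-family complexes are ATP-driven chromatin remodelers that slide or evict nucleosomes. PBAF is the family member that contains Pbrm1, a protein with several bromodomains that bind acetylated histones, together with Arid2, Brd7 and Phf10. SS18 is a subunit of canonical and non-canonical BAF complexes and not of PBAF. The SSX tail of the fusion binds at genes that polycomb repressors normally keep silent, many of them developmental regulators. The paper reports that the fusion brings the non-canonical complex broadly to such genes, and that canonical BAF with the fusion is mostly missing from them. The question for these data is which genes and pathways responded to Pbrm1 disruption in one fusion background and not, or in the other direction, in the other.

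Several facts about the libraries touch every result. Total counts were 10136872 to 14128863 in the hSS1 libraries and 10613665 to 19567840 in the hSS2 libraries compared here. The hSS1 and hSS2 libraries were counted in separate tables, so the fusion and the count table cannot be told apart. The interaction sets within-table differences against each other. Between hSS1 and hSS2 controls 5366 genes were called (24.7%), so levels are set side by side across the tables only as a description. The numbers in the titles also differed between the arms. They are read here as mouse numbers, which the titles themselves do not say. All 8 hSS2;Pbrm1-fl mice were numbered 2000 and over, against 4 of 13 hSS2 controls. Another 4 hSS2 controls lay at 1000 to under 2000, as did all 8 hSS2 tumors with Arid1b disrupted. The last 5 lay under 1000, as did all 8 hSS2 tumors with Arid1a disrupted. Those Arid1b and Arid1a tumors were in the fit but not in this comparison. All 4 hSS1;Pbrm1-fl mice lay at 1000 to under 2000, against 3 of 5 hSS1 controls. By Ddx3y, a Y-linked gene, over 1 CPM, 1 of 5 hSS1 control, 1 of 4 hSS1;Pbrm1-fl, 9 of 13 hSS2 control and 3 of 8 hSS2;Pbrm1-fl tumors were male. In hSS1;Pbrm1-fl tumors the median log2 level of chromosome 6 genes, relative to hSS1 controls, was -0.44, -0.49, -0.52 and -0.34, against -0.12 to 0.00 in the hSS1 controls themselves and -0.18 to 0.32 in hSS2;Pbrm1-fl tumors. These values were not alike along the chromosome in every tumor: genes that start below 100 Mb lay at -0.51 to -0.40 in the 4 hSS1;Pbrm1-fl tumors and at -0.25 in hSS1 control replicate 4, while genes beyond 110 Mb lay at -0.54 to -0.50 in hSS1;Pbrm1-fl replicates 1 to 3 and at 0.0054 in replicate 4. Genes on chromosome 6 are marked as such. On chromosome 1 these medians were -0.16, -0.17, -0.31 and -0.095 in hSS1;Pbrm1-fl tumors and -0.079 to 0.25 in hSS1 controls. In hSS2 they were -0.17 to -0.036 in Pbrm1-fl tumors and -0.073 to 0.12 in controls. Of the 1438 tested genes of chromosome 1, 8 were called higher and 52 lower in hSS1 (4.17%, against 3.96% of all genes). In hSS2 16 were higher and 70 lower (5.98%, against 6.09%). Genes on chromosome 1 are not marked. Arid1a stood at 239 CPM in the library labelled hSS2 control replicate 9, below the 433 to 592 CPM of the other 12 controls, and the median log2 level of its genes relative to all hSS2 controls was -0.67 on chromosome 14, which holds Pbrm1, Psme1 and Psme2, and -0.33 on chromosome 4. In hSS2 control replicate 1 those medians were -0.17 and -0.096. Without these 2 controls the counts of called genes given below were 827 for the interaction, 943 in hSS1, 1428 in hSS2 and 1595 for the mean effect. The library of hSS1;Pbrm1-fl replicate 3 stood apart from the other 3 of its group in several gene groups described below. The synovial sarcoma marker Tle1, a transcriptional corepressor, was present in all 30 tumors at 163 to 409 CPM, while Sox2 (2.96 to 160 CPM), Epcam (2.50 to 198 CPM) and Krt8 (0.0515 to 91.2 CPM) varied widely within groups.

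**Figure D1:**
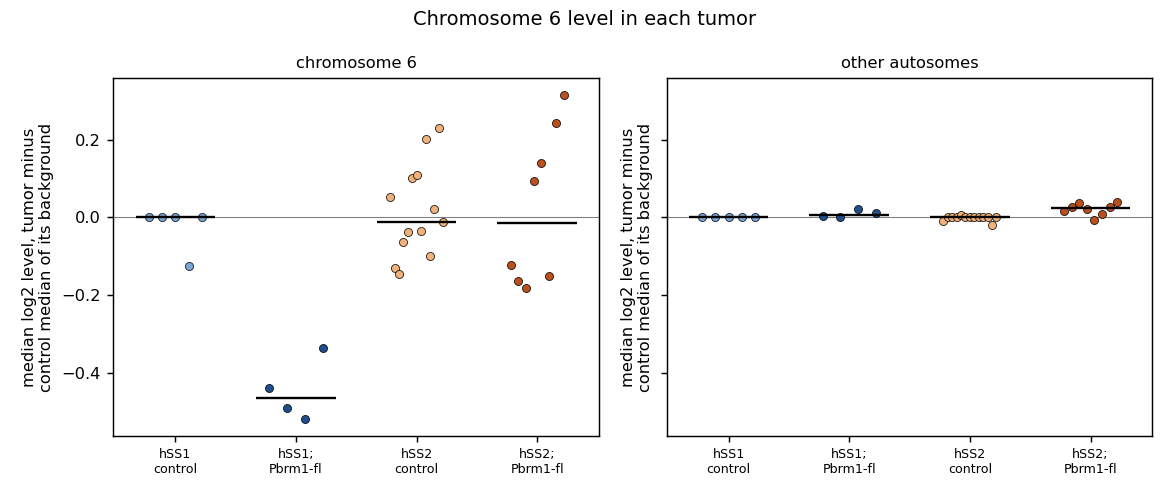
Median log2 level of the genes of chromosome 6 (left) and of the other autosomes (right) in each of the 30 tumors, relative to the control median of the same background. Points are tumors and bars are group medians; the 4 hSS1;Pbrm1-fl tumors lie at -0.52 to -0.34 on chromosome 6, below every other tumor, and close to 0 on the other autosomes.

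Pbrm1 itself (chr14:31019138-31121592, GRCm38) was measured at 302, 257, 320, 342 and 354 CPM in the 5 hSS1 controls and at 198, 237, 96.1 and 214 CPM in the 4 hSS1;Pbrm1-fl tumors. In hSS2 controls it was 170 to 318 CPM (median 255; 248 CPM in replicate 9) and in hSS2;Pbrm1-fl tumors 94.6 to 141 CPM (median 98.6). The groups did not overlap in either background, and in hSS1 only replicate 3 reached the level of the hSS2;Pbrm1-fl tumors. Pbrm1 fell by 0.76 on the log2 scale (SE 0.16, adjusted p 0.0076) in hSS1 and by 1.27 (SE 0.11, adjusted p 2.8e-10) in hSS2. The difference of 0.51 (SE 0.19, adjusted p 0.12) did not pass the threshold of 0.05, but did so without hSS1;Pbrm1-fl replicate 3 (0.74, adjusted p 0.011) and under limma-voom (0.73, adjusted p 0.0023). These are whole-gene counts, so reads from exons other than exon 11 remain in them. The fusion and the extent of Pbrm1 loss cannot be told apart in the interaction. The paper also describes a weaker depletion of Pbrm1 in hSS1 than in hSS2. It proposes selection in hSS1 for tumor cells that kept a Pbrm1 allele, which was not tested here.

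None of the other PBAF-specific subunits passed the test. Interaction values were 0.21 for Arid2 (adjusted p 0.62), -0.19 for Brd7 (adjusted p 0.60) and 0.25 for Phf10 (adjusted p 0.35), and neither single effect passed for any of the 3. Of 26 other BAF-family subunits 1 passed in the interaction (3.85%, against 2.86% of all genes): Bcl7a, an accessory subunit, which stood at 150, 136, 166, 81.0 and 88.1 CPM in hSS1 controls and 55.7, 73.6, 62.2 and 90.5 CPM in hSS1;Pbrm1-fl tumors. Its interaction was -1.003 (adjusted p 0.045), and the hSS1 groups overlapped. That call was lost in 15 of 30 fits that each left out 1 tumor and in 7 of 12 other settings. Smarca4, the ATPase at the core of the complexes, rose in hSS2 (0.46, adjusted p 0.012), with an interaction of -0.62 that did not pass (adjusted p 0.095).

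Most genes called in one background were not called in the other, although the lists of calls were not compared by a test. Between control and Pbrm1-fl tumors, 860 of 21725 genes were called in hSS1, or 3.96% (464 higher, 2.14%, and 396 lower, 1.82%). In hSS2 1323 genes were called, or 6.09% (610 higher, 2.81%, and 713 lower, 3.28%). Both counts fell under limits on mouse numbers, which also left fewer tumors. The first also depended on the other libraries in the fit. The hSS1 count was 37 with hSS1 tumors limited to mice of 1000 to under 2000, and 1 when the hSS1 table was fitted on its own (3059 genes at an unadjusted p under 0.05). The hSS2 count was 101 with hSS2 tumors limited to mice of 2000 and over. With both limits the counts were 17 and 0 (2976 and 2372 at an unadjusted p under 0.05 by edgeR). The interaction passed for 622 genes, 2.86% (369 higher, 1.7%, and 253 lower, 1.16%). Of these 622, the effect was called only in hSS1 for 306, only in hSS2 for 179, in both for 10 and in neither for 127. The 2 effects pointed in opposite directions in 563 of the 622 (90.5%, against 47.6% of all tested genes), a share that selection by the interaction itself favors. Across the 21725 genes the 2 effects correlated with a Pearson r of 0.178 and a Spearman rho of 0.094, as a description over genes, which are not independent replicates.

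The count of 622 fell under limits on mouse numbers. These limits also left fewer tumors, so the numbers and the loss of tumors cannot be told apart there. It was 6 when the hSS2 tumors were limited to those numbered 2000 and over, 57 when the hSS1 tumors were limited to 1000 to under 2000, 0 with both limits (2100 genes at an unadjusted p under 0.05) and 64 with the number range as a term in the edgeR fit. DESeq2 called 1195 and limma-voom 2754 in all tumors. With both limits 599 of the 622 genes could be tested, all 599 kept their direction, 507 had an unadjusted p under 0.05, and the median ratio of the sizes was 0.914. With only hSS2 limited, 595 could be tested, all 595 kept their direction, 572 had an unadjusted p under 0.05, and that ratio was 0.946. Leaving out 1 tumor changed the count to as few as 235 (without hSS1 control replicate 3), and to 319, 270 and 330 without hSS1 control replicate 1 and hSS1;Pbrm1-fl replicates 1 and 2. Chromosome 6 held 83 of the 622 (14 higher and 69 lower, 7.29% of its 1139 tested genes), and 539 lay elsewhere.

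**Figure D2:**
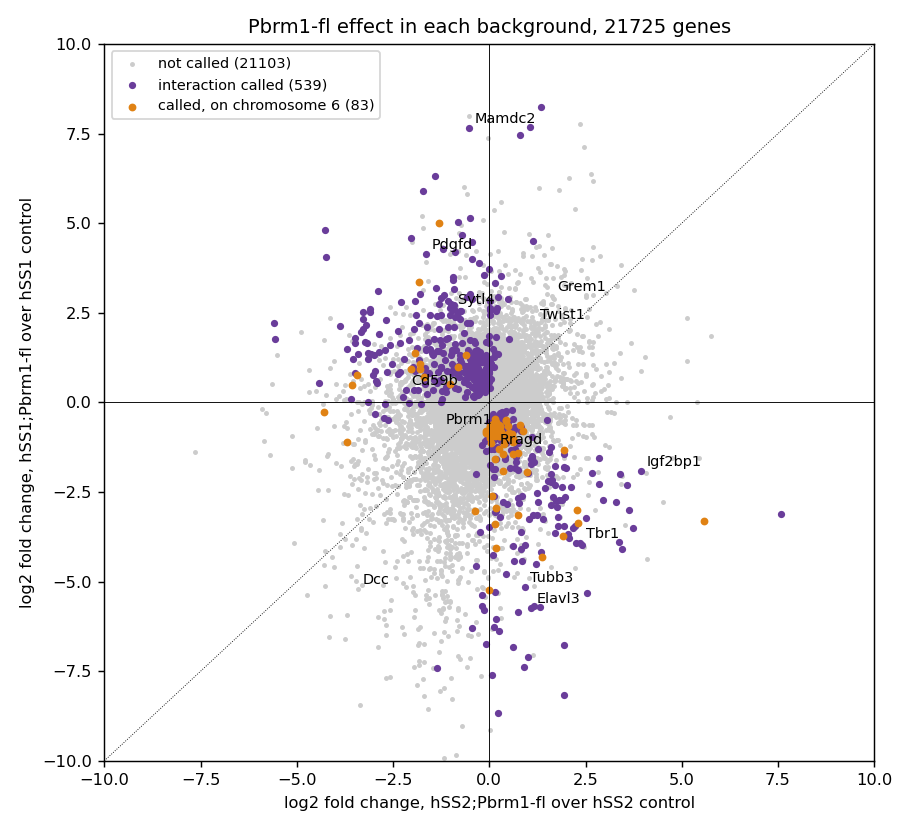
Log2 fold change of each of 21725 genes after Pbrm1 disruption in hSS2 (horizontal axis) and in hSS1 (vertical axis). Grey points are genes not called in the interaction, purple points the 539 called genes outside chromosome 6 and orange points the 83 on it; called genes lie mostly in the upper left and lower right, where the effects are opposite, and Twist1 and Grem1 lie near the diagonal.

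Among the genes with the smallest adjusted p in the interaction, those with a higher effect in hSS1 included the growth factor gene Pdgfd (chr9:6168584-6378850), whose product activates the PDGF receptor beta. Pdgfd stood at 3.56, 7.02, 1.54, 0.889 and 1.28 CPM in hSS1 controls and at 29.96, 18.98, 126 and 26.8 CPM in hSS1;Pbrm1-fl tumors, so the hSS1 groups did not overlap, as in 6.15% of all tested genes. In hSS2 it ran the other way, from 1.80 to 23.8 CPM (median 7.74) in controls and from 1.08 to 7.14 CPM (median 2.77) in Pbrm1-fl tumors, with overlap. The effects were 4.13 (SE 0.78, adjusted p 0.0039) in hSS1 and -1.64 (SE 0.52, adjusted p 0.048) in hSS2, and the interaction was 5.77 (SE 0.94, adjusted p 0.0015). The hSS2 call was lost in 14 of 30 fits that each left out 1 tumor and in 6 of 13 other settings (-1.93 to -0.85), while the hSS1 and interaction calls held in all 30.

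Sytl4 (chrX:133936385-133981812), which encodes a protein that docks secretory granules, showed the same layout. It was measured at 8.65, 3.09, 6.89, 5.19 and 2.46 CPM in hSS1 controls and at 16.1, 46.5, 23.1 and 40.5 CPM in hSS1;Pbrm1-fl tumors, against 10.6 to 29.7 CPM (median 14.7) and 4.83 to 11.6 CPM (median 9.82) in hSS2. The 4 hSS1;Pbrm1-fl tumors lay above every hSS1 control. The interaction was 3.53 (SE 0.58, adjusted p 0.0015), and it remained past the threshold with hSS2 limited to mice of 2000 and over (3.45, adjusted p 0.029). Ddx43, an RNA helicase gene, rose in hSS1 (3.20, adjusted p 0.0067) and fell in hSS2 (-1.38, adjusted p 0.047), but 1 of the 4 hSS1;Pbrm1-fl tumors, replicate 3, was at 0.579 CPM against 4.75 to 6.81 CPM in the other 3.

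In other genes of this direction one background carried the change. Galk2, a sugar kinase, stood at 15.4 to 26.4 CPM in hSS1 controls and 22.7 to 27.6 CPM in hSS1;Pbrm1-fl tumors (0.24, adjusted p 0.65). In hSS2 it fell from 19.2 to 27.3 CPM (median 24.0) in controls to 3.24 to 19.3 CPM (median 5.96), a log2 difference of -1.62 (SE 0.19, adjusted p 4.5e-07) and an interaction of 1.86 (SE 0.32, adjusted p 0.0016). Only 1 hSS2;Pbrm1-fl tumor reached the control range. Cd59b encodes an inhibitor of the complement attack complex and has the related neighbor Cd59a. Cd59b fell in hSS2 (-2.16, adjusted p 4.5e-07), from a median of 4.43 to one of 0.661 CPM, and not in hSS1 (0.33, adjusted p 0.61). Cd59a fell in hSS2 as well (-1.61, adjusted p 0.0044), and reads of these related genes may be divided between them. Glb1l, related to the lysosomal beta-galactosidase, fell in hSS2 (-1.43, adjusted p 1.5e-05), where the groups did not overlap, as in 0.272% of all tested genes.

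The reverse held for Mamdc2, an extracellular matrix proteoglycan. It was at 0.0848, 0.226, 0, 0.410 and 0.273 CPM in hSS1 controls and at 27.6, 3.40, 138 and 0.764 CPM in hSS1;Pbrm1-fl tumors, while in hSS2 it was 0.798 to 4.93 CPM (median 2.61) and 0.244 to 6.15 CPM (median 1.40). The 4 hSS1;Pbrm1-fl tumors differed widely among themselves, and replicate 4 lay below the lowest hSS2 control, although the hSS1 groups did not overlap. Chpf2, an enzyme of chondroitin sulfate chain synthesis, rose in hSS1 (1.13, adjusted p 0.0021) and had a value of -0.18 in hSS2 (adjusted p 0.47). Steap4, a metalloreductase, rested on 1 library: it stood at 957 CPM in hSS1;Pbrm1-fl replicate 3 and at 9.93 to 17.4 CPM in the other 3, against 3.08 to 11.5 CPM in hSS1 controls. Without that library its interaction was 1.34 and did not pass.

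Of the genes with a lower effect in hSS1, Rragd (chr4:32983037-33022180) encodes a Rag GTPase, which recruits the growth regulator mTORC to lysosomes when amino acids are present. It was measured at 195, 235, 255, 202 and 203 CPM in hSS1 controls and at 90.2, 89.9, 77.8 and 95.6 CPM in hSS1;Pbrm1-fl tumors. The spread within each hSS1 group was small beside the gap between them. In hSS2 the groups lay on top of each other, at 116 to 238 CPM (median 150) and 119 to 254 CPM (median 150). The effect was -1.30 (SE 0.21, adjusted p 0.00093) in hSS1 and 0.12 (adjusted p 0.63) in hSS2, and the interaction was -1.43 (SE 0.25, adjusted p 0.0016). The hSS1 effect passed in each of 13 alternative settings, and the interaction in 10 of 12. Of the 48 genes on the list of lysosomal genes, Rag GTPases and MiT/TFE factors, Rragd was the only one called in the interaction or in hSS1.

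Zdhhc21, a palmitoyltransferase, fell in hSS1 from 198, 101, 212, 101 and 169 CPM to 51.7, 63.6, 59.3 and 66.6 CPM (-1.37, SE 0.20, adjusted p 0.00016). In hSS2 it was 59.3 to 85.3 CPM in controls and 57.2 to 79.1 CPM in Pbrm1-fl tumors (-0.08, adjusted p 0.78). Pcbp4, an RNA-binding protein, also fell in hSS1, from 89.1 to 143 CPM in controls to 48.3 to 83.9 CPM in Pbrm1-fl tumors (-0.90, adjusted p 0.0078). Its hSS2 medians were 61.6 and 77.3 CPM. Its interaction of -1.29 (SE 0.23, adjusted p 0.0022) also passed with hSS2 limited to mice of 2000 and over (-1.35, adjusted p 0.048). With that limit no other gene of the 19 named here for the interaction passed except Sytl4, and with both limits none did.

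Rundc3a, a neuronal effector of small GTPases, stood at 28.9, 49.05, 40.5, 3.90 and 6.74 CPM in hSS1 controls and at 9.33, 3.32, 2.80 and 2.55 CPM in hSS1;Pbrm1-fl tumors. It fell in hSS1 (-2.52, adjusted p 0.015) and rose in hSS2 (1.24, adjusted p 0.032). The hSS1 groups overlapped, because control replicates 4 and 5 were low. Tbr1, a transcription factor of cortical neurons, was at 6.87, 2.41, 6.24, 0.0684 and 0.364 CPM in hSS1 controls, and the 4 hSS1;Pbrm1-fl libraries held at most 3 counts of it each, so that its fold change there is not given. In hSS2 Tbr1 rose from a median of 0.257 to one of 1.25 CPM (2.37, adjusted p 0.0043).

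A further 4 of the named genes with a lower effect in hSS1 lie on chromosome 6, Prr15, Tgfa and Cpvl below 100 Mb and Mtmr14 beyond 110 Mb. Prr15, a small proline-rich protein, was at 52.1, 21.6, 56.5, 5.19 and 4.65 CPM in hSS1 controls and 3.14, 1.70, 4.54 and 3.40 CPM in hSS1;Pbrm1-fl tumors. Its hSS1 effect of -3.13 (adjusted p 0.0014) stood beside a median of -0.42 over all tested genes of the chromosome. Tgfa, a ligand of the EGF receptor, went from 2.54, 4.30, 5.84, 5.40 and 4.10 CPM to 0.807, 0.681, 1.25 and 1.87 CPM in hSS1 (-1.94, adjusted p 0.019) and rose in hSS2 from a median of 4.58 to one of 10.4 CPM (0.98, adjusted p 0.038). Mtmr14, a phosphoinositide phosphatase, fell in hSS1 by 0.91 on the log2 scale (adjusted p 0.0064). Cpvl, a carboxypeptidase, was listed at 0 in 3 of the 4 hSS1;Pbrm1-fl tumors and at 0.0965 CPM in the other, with at most 0.638 CPM in hSS1 controls. No fold is given for Cpvl in hSS1, where both groups are near the counting floor. In hSS2 it rose from a median of 0.154 to one of 2.67 CPM (5.58, adjusted p 1.1e-06).

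**Figure D3:**
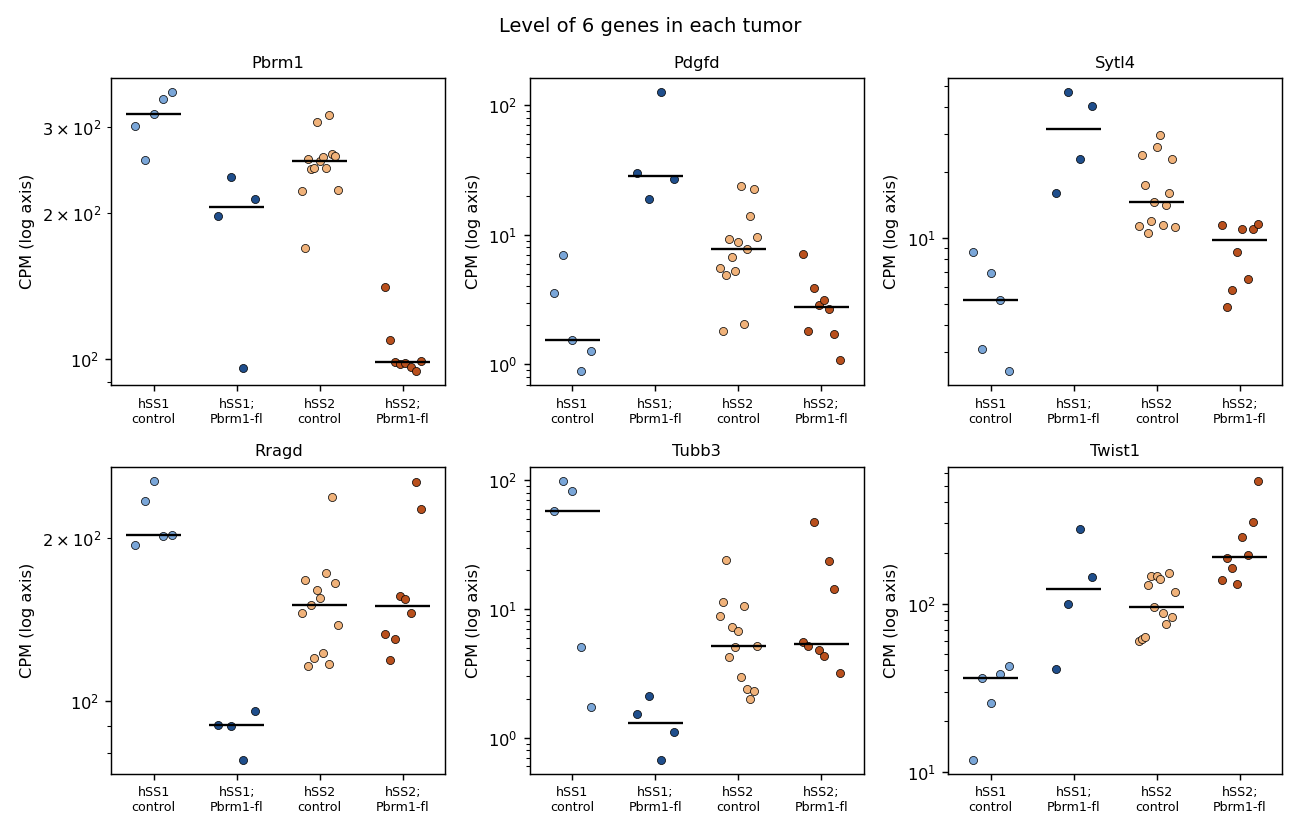
Level (CPM, log axis) of 6 genes in each tumor of the 4 groups; points are tumors and bars are group medians. Pdgfd and Sytl4 are higher in all 4 hSS1;Pbrm1-fl tumors than in any hSS1 control and lean the other way in hSS2, Rragd is lower in hSS1;Pbrm1-fl tumors only, Tubb3 is high in 3 of 5 hSS1 controls, and Twist1 is higher at the median after Pbrm1 disruption in both backgrounds.

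Gene groups were described by how many of their tested members passed, beside the same for all genes. Neuronal and synaptic genes, which encode neuron-specific cytoskeleton, RNA-binding and synaptic proteins, had the largest share of calls among the lists in the interaction and in hSS1, though not in hSS2. Of 58 tested, 12 passed in the interaction (9 lower in hSS1 and 3 higher; 20.7% against 2.86% of all genes) and 16 in hSS1 (14 lower and 2 higher; 27.6% against 3.96%). In hSS2, 7 passed (5 higher and 2 lower; 12.1% against 6.09%). The median effect was -0.97 in hSS1 and 0.08 in hSS2. Tubb3, the neuronal beta-tubulin, was at 57.4, 98.4, 82.5, 5.06 and 1.73 CPM in hSS1 controls and at 1.52, 2.13, 0.675 and 1.10 CPM in hSS1;Pbrm1-fl tumors (-5.16, SE 1.07, adjusted p 0.0070). The RNA-binding protein gene Elavl3 was at 46.3, 55.1, 47.1, 0.273 and 0.0911 CPM in the controls and at 0.170 to 1.16 CPM in the floxed tumors. The growth cone gene Gap43 was at 10.7, 21.7, 34.5, 0.478 and 2.28 CPM and then at 0.179 to 1.28 CPM.

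These genes were high in hSS1 control replicates 1, 2 and 3 and low in replicates 4 and 5, which lay within or near the range of the floxed tumors. Replicates 1 and 2 were mice of 2000 and over, and with hSS1 limited to mice of 1000 to under 2000, where 1 of the 3 high controls is left, 0 of the 58 passed in the interaction and 0 in hSS1. The median hSS1 effect was then -0.46. Epcam and Krt8, markers of the epithelial component of synovial sarcoma, followed the same split: Krt8 was at 91.2, 35.9, 73.2, 0.205 and 0.0911 CPM in the 5 hSS1 controls. In the floxed tumors, however, Krt8 was at 29.3, 3.83, 13.8 and 3.23 CPM, above controls 4 and 5. No gene of the 41 on the epithelial list passed in hSS1 by edgeR (9 at an unadjusted p under 0.05; median -1.12), and the part of an epithelial component in the neuronal values was not tested. Neurofilament genes moved the other way in hSS2. Nefm was at 0 to 0.291 CPM in hSS2 controls and 0.258 to 4.95 CPM (median 1.20) in hSS2;Pbrm1-fl tumors, and Nefh and Nefl also rose there. Doublecortin, Dcx, fell in both backgrounds, by 5.81 in hSS1 (adjusted p 0.017) and by 2.74 in hSS2 (adjusted p 0.043) on the log2 scale.

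The 3 neuronal genes with a higher effect in hSS1 encode glutamate receptor subunits, and 2 of them rested on 1 library. Grin2a was at 0.243 to 1.74 CPM in hSS1 controls and at 12.3, 8.76, 61.1 and 7.89 CPM in hSS1;Pbrm1-fl tumors, with no overlap (4.27, adjusted p 0.027). Gria4 stood at 81.5 CPM in hSS1;Pbrm1-fl replicate 3 and at 0 to 0.179 CPM in the other 3, and without replicate 3 its interaction reversed to -1.09. Gria1 stood at 689 CPM in 1 hSS2 control, against a control median of 3.75 CPM.

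**Figure D4:**
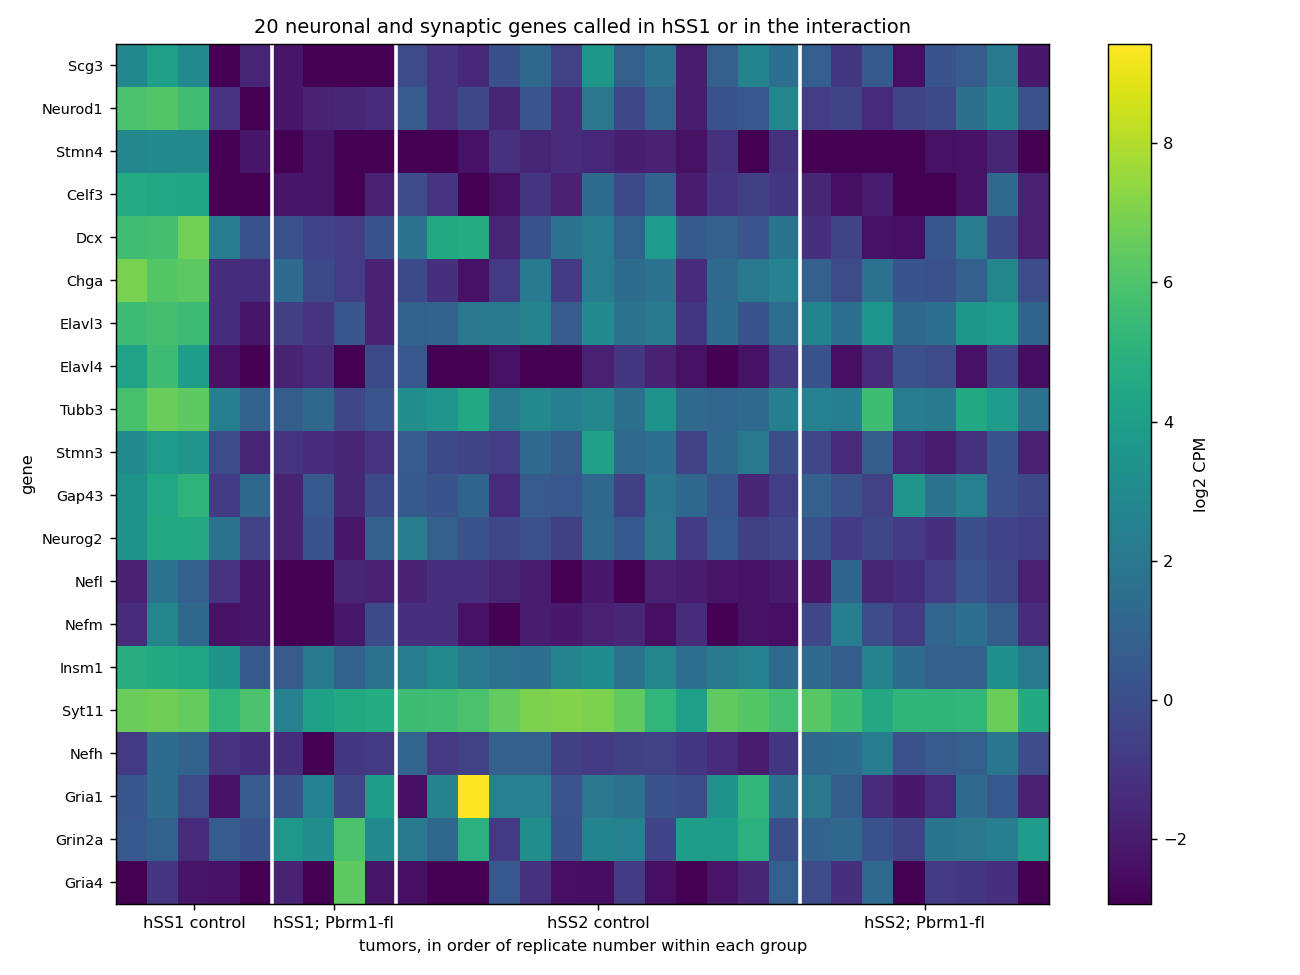
Log2 CPM of the 20 neuronal and synaptic genes called in hSS1 or in the interaction (rows), in the 30 tumors ordered by group and replicate number (columns). Most rows are bright in the first 3 of the 5 hSS1 controls and dark in the other 2 and in the hSS1;Pbrm1-fl tumors, while Gria4 is bright in a single hSS1;Pbrm1-fl tumor and Gria1 in a single hSS2 control.

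Of 42 genes of the Hedgehog and Notch pathways, 4 passed in the interaction (9.52%), all with a lower effect in hSS1 (Nrarp, Hes6, Mfng and Notch2), against 1.16% of all genes in that direction. These 4 act in Notch signaling, which was not a list of its own. Nrarp, a Notch target that feeds back on the pathway, was at 45.5, 36.6, 30.1, 21.1 and 13.9 CPM in hSS1 controls and 10.6, 5.96, 17.5 and 7.21 CPM in hSS1;Pbrm1-fl tumors (-1.52, adjusted p 0.027). In hSS2 its medians were 9.604 and 21.5 CPM (0.69, adjusted p 0.10), and the interaction was -2.20 (SE 0.48, adjusted p 0.012). The fringe glycosyltransferase gene Mfng, which tunes the ligand choice of Notch receptors, fell in hSS1 (-1.58, adjusted p 0.036). Hes6, of the Hes repressor family and high in the same hSS1 control replicates 1 to 3 as the neuronal genes, fell by 2.61 on the log2 scale (adjusted p 0.0078). The receptor Notch2 rose in hSS2 (0.61, adjusted p 0.016) and had a value of -0.46 in hSS1 (adjusted p 0.28). The ligand Jag2 rose in hSS2 too (0.71, adjusted p 0.029), from a median of 36.4 CPM to one of 65.8 CPM, as did the Hedgehog coreceptor Cdon (1.37, adjusted p 0.031), and neither passed in the interaction (adjusted p 0.17 and 0.091). None of the 42 passed in the interaction with either limit on mouse numbers or with the range as a term.

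Homeobox and other developmental transcription factors had more calls in hSS2 than in hSS1, without more interaction calls than other genes. Of 107 tested, 19 passed in hSS2 (16 higher and 3 lower, against 2.81% and 3.28% of all genes), 4 in hSS1 (1 higher and 3 lower) and 3 in the interaction (2.80%, against 2.86% of all genes), all with a lower effect in hSS1 (Tbr1, Lhx9 and Sox4). The median effect was 0.53 in hSS2 and 0.04 in hSS1. Msx1, a limb and craniofacial homeobox gene, was at 48.5 to 223 CPM (median 90.2) in hSS2 controls and 182 to 890 CPM (median 357) in hSS2;Pbrm1-fl tumors (1.87, SE 0.32, adjusted p 0.00029). In hSS1 it was at 156, 190, 92.4, 163 and 118 CPM and at 73.1, 98.7, 122 and 227 CPM (-0.14, adjusted p 0.90), and its interaction was -2.02 (adjusted p 0.050, just outside the threshold). Hand1, a limb and heart factor, was at 0 to 0.569 CPM in hSS2 controls and 0.928 to 6.83 CPM in hSS2;Pbrm1-fl tumors and was near 0 in every hSS1 tumor.

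Sox4, a progenitor transcription factor, fell in hSS1 from 97.8, 237, 263, 35.7 and 115 CPM to 53.5, 56.5, 23.2 and 46.3 CPM (-1.74, adjusted p 0.018), with hSS2 medians of 53.4 and 57.5 CPM. Lhx9, a homeobox gene of limb and gonad, was at 12.04, 42.8, 86.3, 2.32 and 5.38 CPM and at 0.628, 1.36, 5.89 and 5.60 CPM in hSS1, and its hSS1 effect of -3.14 did not pass (adjusted p 0.057). The hSS1 groups overlapped for both genes. Dlx4 was the exception that rose in both backgrounds (2.99 in hSS1, adjusted p 0.046, and 2.703 in hSS2, adjusted p 0.0019), from at most 1.06 CPM to 2.60, 1.45, 14.3 and 1.36 CPM in hSS1. With hSS2 limited to mice of 2000 and over, 2 of the 107 passed in hSS2 and the median effect was 0.81.

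Growth factor genes passed in both directions. Of 41 genes of PDGF, IGF and other growth factor ligands, receptors and binding proteins, 7 passed in the interaction (17.1%, against 2.86% of all genes), 3 of them higher in hSS1 and 4 lower. Outside chromosome 6, 5 of 37 passed (13.5%, against 2.62% of all genes there), 3 higher and 2 lower. Igf2bp2 and its relatives Igf2bp1 and Igf2bp3 encode RNA-binding proteins that stabilize Igf2 and other mRNAs, and they moved in opposite directions. Igf2bp2 was at 4.24, 11.6, 5.03, 56.3 and 0.820 CPM in hSS1 controls and at 119, 47.4, 93.8 and 89.0 CPM in hSS1;Pbrm1-fl tumors (2.48, adjusted p 0.016), and its interaction was 3.29 (SE 0.72, adjusted p 0.012). One control, replicate 4, lay among the floxed tumors. Igf2bp1 rose in hSS2, from 0.133 to 1.56 CPM (median 0.569) to 1.29 to 54.04 CPM (median 3.09), a log2 rise of 3.94 (adjusted p 0.00026) against -1.93 in hSS1 (adjusted p 0.31), and its interaction was -5.86 (adjusted p 0.014). Igf2bp3, on chromosome 6, rose in hSS2 as well (2.30, adjusted p 0.023).

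Ghr, the growth hormone receptor, rose in hSS1 from 26.6, 34.8, 19.4, 25.7 and 36.3 CPM to 85.7, 67.4, 103 and 78.2 CPM with no overlap (1.55, adjusted p 0.012), and had a value of 0.10 in hSS2 (adjusted p 0.85). Its interaction of 1.45 did not pass (adjusted p 0.054). Igfbp4, which binds and holds back IGF ligands, rose in both backgrounds, by 3.24 in hSS1 (adjusted p 0.032) and 2.02 in hSS2 (adjusted p 0.024). In hSS1 that rise rested on replicate 3, at 5048 CPM against 59.5, 264 and 112 CPM in the other 3 floxed tumors, and without it the hSS1 value was 0.0047.

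Of 64 WNT pathway genes, 10 passed in hSS2 (8 higher and 2 lower; 15.6%, against 6.09% of all genes) and 3 in hSS1 (Ror2 and Tle2 higher, Tle4 lower; 4.69%, against 3.96%). The interaction passed for 3 (4.69%, against 2.86%). Sp5, a transcription factor that WNT signals induce, was at 30.9, 44.7, 47.1, 24.6 and 30.6 CPM in hSS1 controls and 5.83, 6.47, 20.7 and 21.8 CPM in hSS1;Pbrm1-fl tumors, with no overlap. In hSS2 its medians were 9.99 and 29.1 CPM, a rise of 1.54 (adjusted p 0.021), and the interaction was -2.92 (SE 0.80, adjusted p 0.036). The ligand gene Wnt5b, on chromosome 6, fell in hSS2 from a median of 2.62 to one of 1.18 CPM (-1.03, adjusted p 0.011) and had a value of 0.52 in hSS1 (interaction 1.55, adjusted p 0.044). The Wnt5b interaction call was lost in 17 of 30 fits that each left out 1 tumor and in 6 of 11 other settings. Wnt2b rested in hSS1 on control replicate 1, at 207 CPM against 1.22 to 10.2 CPM in the other 4. The secreted WNT antagonist Dkk2 rose in hSS2 from a median of 4.62 to one of 59.2 CPM (3.07, adjusted p 0.0024), and in hSS1 it was at 2.67 to 4.70 CPM and 0.766 to 8.11 CPM (-0.26, adjusted p 0.92).

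Matrix genes leaned the other way from neuronal genes. Of 74 collagen and other matrix genes, 50 had positive hSS1 effects (median 0.54) and 50 had negative hSS2 effects (median -0.35), but only Col4a6 passed in the interaction by edgeR (1.35% of the list, against 2.86% of all genes; DESeq2 called 6 and limma-voom 16). Single effects passed in hSS1 for 3, all higher (Col4a5, Col4a6 and Col6a2), which is 4.05%, near the 3.96% of all genes. In hSS2 they passed for 1 higher and 3 lower (5.41%, against 6.09%). Col6a2, a subunit of collagen VI, was at 64.3, 89.9, 49.5, 23.4 and 61.2 CPM in hSS1 controls and at 300.3, 345, 39.5 and 273 CPM in hSS1;Pbrm1-fl tumors, in which replicate 3 stayed low. Col4a6 was at 463 CPM in hSS1;Pbrm1-fl replicate 1 and 11.3 to 46.2 CPM in the other 3, against 0.456 to 13.1 CPM in controls, and without replicate 1 its interaction was 2.62 and did not pass. The summed level of 17 fibroblast markers in hSS1 was 517 to 1265 CPM in the 5 controls and 1367 to 2209 CPM in the 4 floxed tumors. In hSS2 it was 1203 to 2434 CPM and 971 to 2477 CPM. A sum follows its most abundant members: the hSS1 effects were positive for 10 of the 17 and negative for 7 (median 0.34). Dcn is on both this list and the matrix list. Of those markers 1 passed in hSS1, and their part in the matrix values was not tested. In bulk tumor RNA, more cells of a type and more RNA per cell cannot be told apart.

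**Figure D5:**
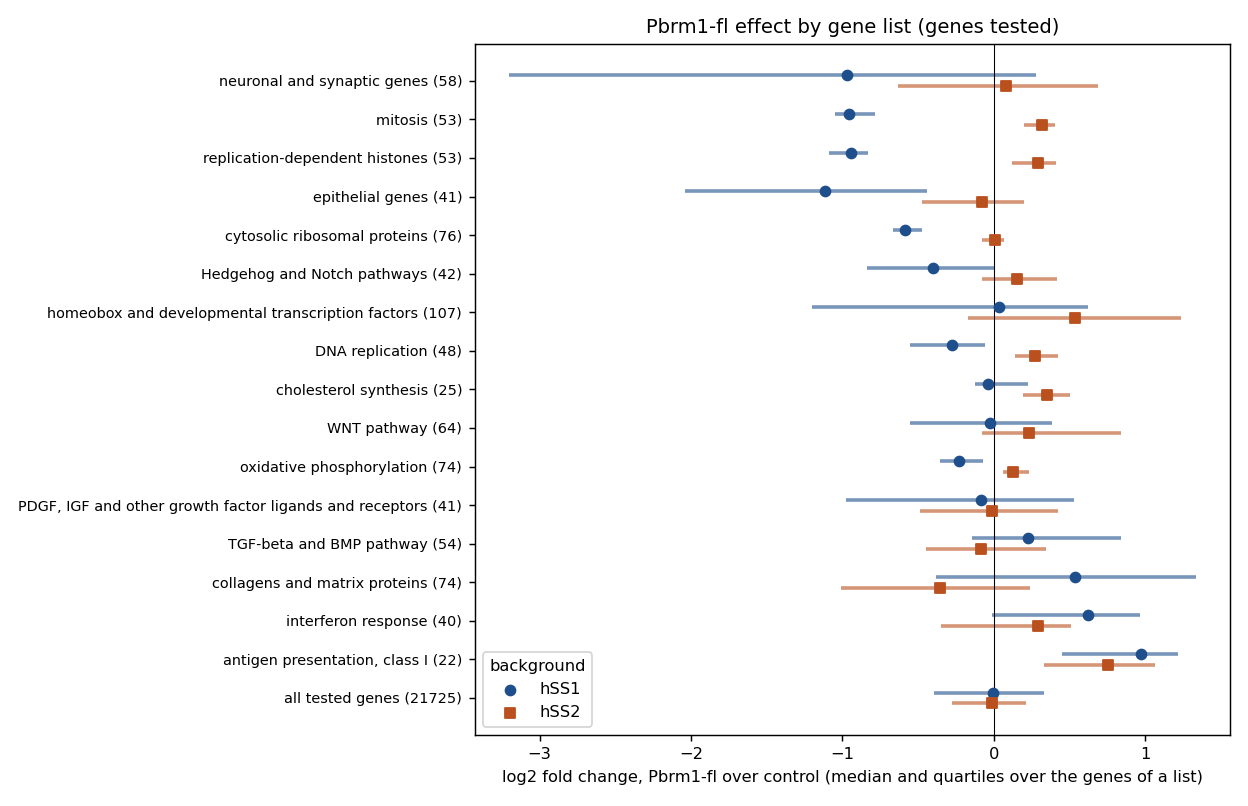
Median (symbol) and quartiles (line) of the log2 fold changes after Pbrm1 disruption over the tested genes of each list, in hSS1 (blue circles) and hSS2 (red squares); the number of genes tested is in brackets. Mitosis, histone, ribosomal protein and neuronal genes have negative medians in hSS1 and medians from 0.01 to 0.32 in hSS2, class I antigen presentation has positive medians in both, and all tested genes have medians near 0.

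Proliferation genes had few calls and medians of opposite sign. All 53 tested mitosis genes had negative hSS1 effects (median -0.95) and 50 of them positive hSS2 effects (median 0.32), and the median interaction was -1.24. None passed in the interaction by edgeR (10 at an unadjusted p under 0.05, 1 by DESeq2 and 7 by limma-voom), 1 in hSS1 and none in hSS2 (3 at an unadjusted p under 0.05, none by DESeq2 or limma-voom). The one was Pttg1, securin, which holds sister chromatids together until anaphase; it was at 21.2, 17.6, 24.6, 37.8 and 29.8 CPM in hSS1 controls and 7.17, 11.2, 17.8 and 14.5 CPM in hSS1;Pbrm1-fl tumors (-1.05, adjusted p 0.031). The 53 replication-dependent histone genes had median effects of -0.94 and 0.29, with none called by edgeR (7 in hSS1 and 2 in hSS2 at an unadjusted p under 0.05). The genes of these lists rise and fall together in dividing cells and are not independent of each other. With both limits on mouse numbers the mitosis medians were -1.18 in hSS1 and 0.05 in hSS2.

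Cytosolic ribosomal protein genes had a negative hSS1 effect for 76 of 76 (median -0.58) and a negative hSS2 effect for 35 of 76 (median 0.01). Of these, 3 passed in hSS1 (Rpl35a, Rpl32 and Rpl15; 3.95%, against 3.96% of all genes), 58 had an unadjusted p under 0.05 and limma-voom called 36. The Rpl15 call was lost in 23 of 30 fits that each left out 1 tumor and in 7 of 13 other settings. Rpl35a was at 177, 145, 132, 130 and 142 CPM in hSS1 controls and at 68.4, 82.4, 80.3 and 55.4 CPM in hSS1;Pbrm1-fl tumors, with no overlap, and its interaction was -1.05 (SE 0.25, adjusted p 0.019). In hSS2 its medians were 105 and 106 CPM. Rpl32 is on chromosome 6 and fell in hSS1 by 1.12 on the log2 scale (adjusted p 0.011). Processed pseudogenes share reads with these genes, which makes their levels uncertain.

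Of the 44 G1 regulators and p53 targets, 2 passed in the interaction (4.55%, against 2.86% of all genes). Gadd45a, induced by p53 and stress and located on chromosome 6, was at 26.2, 52.8, 46.9, 6.70 and 13.1 CPM in hSS1 controls and at 2.42, 2.72, 4.34 and 4.75 CPM in hSS1;Pbrm1-fl tumors (-3.03, SE 0.51, adjusted p 0.0011). The hSS1 groups did not overlap, and the interaction was -2.65 (adjusted p 0.010). Ccnd3, a G1 cyclin, had a higher effect in hSS1 (interaction 0.89, adjusted p 0.033), although neither single effect passed. Of the 44 genes of that list no other passed in the interaction.

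Of 25 cholesterol synthesis genes 5 rose in hSS2 (Cyp51, Lss, Pmvk, Stard4 and Tm7sf2; median 0.35), where 2.81% of all genes rose, and none passed in hSS1 (median -0.04; 3 at an unadjusted p under 0.05, 1 called by DESeq2) or in the interaction (3 at an unadjusted p under 0.05 by edgeR, none called by DESeq2 and 2 by limma-voom). Cyp51, the sterol demethylase of the pathway, had values of 0.76 in hSS2 (adjusted p 0.035) and -0.09 in hSS1, and its interaction of -0.85 did not pass (adjusted p 0.26). A difference between the backgrounds was thus not shown for this list. Of 67 axon guidance genes 2 passed in the interaction (2.99%, near the 2.86% of all genes). Srgap3, a regulator of small GTPases on chromosome 6, fell in hSS2 from 12 to 177 CPM (median 69.4) to 0.974 to 15.4 CPM (median 5.47), which is -3.69 in log2 (SE 0.46, adjusted p 2.2e-06), against -1.10 in hSS1 (adjusted p 0.28). Sema3b, a secreted guidance cue, rose in hSS1 (2.55, adjusted p 0.046), where replicate 3 was at 344 CPM and the other 3 floxed tumors at 39.4, 5.19 and 6.71 CPM.

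The study's SAT genes, which are turned on in synovial sarcoma cells relative to their cells of origin, were 185 in number here. The interaction passed for 9 (2 higher and 7 lower, 4.86%, against 2.86% of all genes). The hSS1 effect passed for 5 (1 higher and 4 lower, 2.7%, against 3.96% of all genes). The hSS2 effect passed for 12 (8 higher and 4 lower, 6.49%, near the 6.09% of all genes). Edar, the receptor for ectodysplasin in skin appendage development, was at 27.7, 51.3, 56.8, 35.5 and 41.7 CPM in hSS1 controls and 0.897, 15.5, 3.18 and 5.01 CPM in hSS1;Pbrm1-fl tumors, with no overlap (-2.79, adjusted p 0.023). In hSS2 its medians were 11.5 and 23.5 CPM (1.25, adjusted p 0.072), and the interaction was -4.04 (SE 0.85, adjusted p 0.0093). Kcns1, a potassium channel subunit, rose in hSS2 from a median of 0.569 to one of 4.81 CPM (2.67, adjusted p 0.00069). Of 361 MAT genes, whose transcription is maintained between those cells, the interaction passed for 17 (7 higher and 10 lower; 4.71%, against 2.86% of all genes), the hSS1 effect for 28 (7.76%, against 3.96%) and the hSS2 effect for 24 (6.65%, near the 6.09%).

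A response shared by both backgrounds was tested as the larger of the 2 p-values where the directions matched. By edgeR 0 genes (0%) passed, and DESeq2 called 7 and limma-voom 0. An unadjusted p under 0.05 in both by edgeR was found for 691 genes with the same direction (390 higher and 301 lower) and for 300 with opposite directions. The smallest adjusted p was 0.21. With each effect adjusted on its own, 60 of 21725 genes were called in both backgrounds, where 3.96% were called in hSS1 and 6.09% in hSS2. Of the 60, 50 moved the same way (32 higher and 18 lower) and 10 the opposite way. The mean of the 2 effects passed for 1602 genes, 7.37% (821 higher, 3.78%, and 781 lower, 3.59%). Of these, 1504 had the same direction in both, a share that selection by the mean itself favors. With both limits on mouse numbers 99 genes passed for the mean effect, and without hSS1;Pbrm1-fl replicate 3, 690 did.

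The genes described next had the smallest larger p in each direction. None passed that test, but each passed in hSS1 and in hSS2 with the effects adjusted on their own. Twist1 (chr12:33957671-33959829), a transcription factor of mesenchyme and of epithelial-mesenchymal transition, was one of those that rose. It was at 11.8, 36.3, 25.6, 38.3 and 42.6 CPM in hSS1 controls and at 40.9, 99.4, 276 and 144 CPM in hSS1;Pbrm1-fl tumors, and at 59.7 to 152 CPM (median 95.8) and 130 to 534 CPM (median 190) in hSS2. There was a small overlap in each background. The effects were 2.18 (SE 0.41) in hSS1 and 1.19 (SE 0.26) in hSS2, the mean effect was 1.68 (SE 0.24, adjusted p 0.00014), and the difference between backgrounds of 0.99 (95% interval 0.04 to 1.94, adjusted p 0.26) did not pass.

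Grem1 (chr2:113746164-113758646), a secreted antagonist of BMP ligands, rose from 11.4, 25.8, 6.24, 6.70 and 19.2 CPM to 33.3, 64.8, 95.9 and 238 CPM in hSS1, with no overlap, and from a median of 29.02 to one of 96.5 CPM in hSS2. Its mean effect was 2.29 (SE 0.40, adjusted p 0.00070), and the difference of 1.33 (95% interval -0.17 to 2.84) leaves room for a larger effect in hSS1. The BMP ligands Bmp4 and Bmp7 rose in hSS2 (1.19, adjusted p 0.038, and 0.99, adjusted p 0.00085), and their hSS1 values of 0.96 and 0.35 did not pass. In the TGF-beta and BMP list no gene passed in the interaction by edgeR (13 of 54 at an unadjusted p under 0.05; DESeq2 called 3 and limma-voom 8). Fgf11 (mean effect 1.19), a member of the intracellular FGF group, rose in both backgrounds, as did Slc35d2 (0.56), a nucleotide-sugar transporter of the Golgi.

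Arhgef1 (mean effect 0.45, adjusted p 0.00017), which activates RhoA, and Cdc42bpg (0.61, adjusted p 0.00018), a kinase downstream of Cdc42, rose in both backgrounds by less than 1 on the log2 scale. Tyk2, a kinase that interferon receptors use, rose from 49.3, 38.5, 48.97, 44.8 and 50.3 CPM to 71.3, 65.4, 92.6 and 69.3 CPM in hSS1, with no overlap, and from a median of 54.8 to one of 74.0 CPM in hSS2. For these 3 genes the 95% interval of the difference between backgrounds lay within -0.19 to 0.63. Twist1, Grem1, Slc35d2 and, of the falling genes, Gcnt2 and Cacybp kept a called mean effect in all 12 alternative settings other than leaving out single tumors.

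Of the genes with negative effects, Gcnt2 is an enzyme that branches poly-lactosamine sugar chains. It was at 74.7, 48.9, 67.7, 18.2 and 14.4 CPM in hSS1 controls and at 8.79, 6.98, 6.75 and 16.6 CPM in hSS1;Pbrm1-fl tumors, and at 19.2 to 54.3 CPM (median 28.8) and 4.60 to 18.2 CPM (median 10.9) in hSS2. The hSS2 groups did not overlap, the hSS1 groups did, and the mean effect was -1.83 (SE 0.30, adjusted p 0.00035). Cacybp, an adaptor for ubiquitylation of beta-catenin, fell by 0.67 on the log2 scale on average (adjusted p 0.0014), with no overlap in hSS1. Rnf145, a ubiquitin ligase of sterol-sensing, fell by 0.53 (adjusted p 0.0024) and Arhgap5, which shuts off RhoA, by 0.45 (adjusted p 0.0029).

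Dcc, the receptor for the axon guidance cue netrin, showed the same split of hSS1 controls as the neuronal genes. It was at 154, 176, 96.9, 0.0684 and 0.364 CPM in hSS1 controls and at 4.75, 0.340, 1.83 and 2.29 CPM in hSS1;Pbrm1-fl tumors, so that 2 controls lay at or below the floxed tumors. In hSS2 it fell from a median of 1.20 to one of 0.150 CPM (-3.42, adjusted p 0.019). Dpysl4, a growth cone protein, fell in both (mean -1.67, adjusted p 0.0027). The phosphatidylcholine synthesis enzyme Pcyt1b fell by 1.75 on average (adjusted p 0.0020), and the zinc finger gene Zfp334 by 0.45 (adjusted p 0.0016).

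Class I antigen presentation had the largest share of called mean effects among the gene lists (68.2%, against 7.37% of all genes). It covers the class I heavy chains, the proteasome subunits and activators that cut antigens, and the transporter and chaperones that load peptides. Of 22 tested genes 14 had a higher and 1 a lower mean effect (against 3.78% and 3.59% of all genes). In hSS2 8 rose (H2-Q4, H2-T22, Psmb8, Psmb9, Psme1, Psme2, Tap1 and Tap2; median effect 0.75) and in hSS1 4 (H2-T22, Psmb9, Tap2 and Tapbp; median 0.97). The promoters of 4 of these genes are shown, because they are members that moved and because 2 of them hold the core of an interferon response element while the others do not. Each window runs from 250 bases before to 50 after the transcription start in RefSeq on GRCm38.p6, written 5′ to 3′ along the gene, with the core (2 copies of TTTC with any 2 bases between them, on either strand) in capitals. The windows are chr17:36042693-36042992 (minus strand) for H2-T22, chr14:55578244-55578543 (plus strand) for Psme1, chr17:34187281-34187580 (minus strand) for Psmb9 and chr17:33919228-33919527 (plus strand) for Tapbp.
H2-T22: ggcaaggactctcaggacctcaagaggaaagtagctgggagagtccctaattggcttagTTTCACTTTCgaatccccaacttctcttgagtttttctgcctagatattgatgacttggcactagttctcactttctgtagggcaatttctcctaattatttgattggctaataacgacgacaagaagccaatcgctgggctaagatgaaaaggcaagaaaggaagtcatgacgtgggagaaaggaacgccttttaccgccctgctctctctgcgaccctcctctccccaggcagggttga
Psme1: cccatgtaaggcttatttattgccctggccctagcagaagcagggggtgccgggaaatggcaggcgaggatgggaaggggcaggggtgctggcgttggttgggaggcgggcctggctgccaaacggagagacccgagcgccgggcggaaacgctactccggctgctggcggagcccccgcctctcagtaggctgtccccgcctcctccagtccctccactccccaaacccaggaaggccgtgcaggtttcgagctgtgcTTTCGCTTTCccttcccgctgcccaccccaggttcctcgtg
Psmb9: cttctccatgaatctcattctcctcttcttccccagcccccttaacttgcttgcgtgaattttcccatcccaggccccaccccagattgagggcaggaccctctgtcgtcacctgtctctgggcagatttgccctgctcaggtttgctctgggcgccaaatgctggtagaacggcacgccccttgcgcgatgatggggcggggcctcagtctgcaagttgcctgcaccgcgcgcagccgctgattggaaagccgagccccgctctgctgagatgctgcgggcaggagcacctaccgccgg
Tapbp: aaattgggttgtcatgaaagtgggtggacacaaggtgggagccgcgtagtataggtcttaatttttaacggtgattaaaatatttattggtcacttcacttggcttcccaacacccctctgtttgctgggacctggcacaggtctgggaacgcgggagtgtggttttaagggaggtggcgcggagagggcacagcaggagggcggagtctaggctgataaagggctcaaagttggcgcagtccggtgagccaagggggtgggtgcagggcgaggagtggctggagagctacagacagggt

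The core occurs in 3.44% of all 32851 promoter windows in the RefSeq table and in 3.99% of its 27025 genes, and in 5 of the 19 class I genes that matched a window (B2m, Erap1, H2-T22, H2-T23 and Psme1). A match describes the letters of a window and not binding by a factor.

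H2-T22 (chr17:36037128-36042747), a nonclassical class I heavy chain, was at 24, 26.03, 22.8, 36.1 and 55.5 CPM in hSS1 controls and 47.9, 49.01, 114 and 64.3 CPM in hSS1;Pbrm1-fl tumors, and at 39.7 to 73.7 CPM (median 47.2) and 63.8 to 135 CPM (median 86.0) in hSS2. Groups overlapped in both backgrounds. Its mean effect was 0.91 (SE 0.15, adjusted p 0.00067), and the difference was 0.31 (95% interval -0.29 to 0.92). Psmb9, a subunit of the immunoproteasome, was at 2.80, 5.66, 3.32, 7.93 and 6.56 CPM and at 8.16, 4.25, 38.5 and 17.7 CPM in hSS1, and rose from a median of 9.90 to one of 23.1 CPM in hSS2 (1.19, adjusted p 0.011). Psme1 and Psme2, which form a proteasome activator, rose in hSS2 (0.70, adjusted p 0.0021, and 0.76, adjusted p 0.00099). The lowest control value of each was that of replicate 9, and without controls 1 and 9 the values were 0.70 and 0.74. Psme2 went there from 20.1 to 41.98 CPM to 48.4 to 65.6 CPM with no overlap. In hSS1 their values of 0.39 and 0.19 did not pass.

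Tapbp, tapasin, which bridges class I molecules to the peptide transporter, was the member with a different response. It rose in hSS1 from 228, 228, 142, 354 and 279 CPM to 694, 417, 627 and 404 CPM with no overlap (1.12, SE 0.24, adjusted p 0.0092), and in hSS2 it was at 283 to 640 CPM (median 387) and 391 to 530 CPM (median 450), a value of 0.03 (adjusted p 0.95). The interaction was 1.09 (SE 0.30, adjusted p 0.034). Classical class I genes, chosen after their values were seen, varied more between tumors. H2-K1 was at 52.5 to 121 CPM in hSS1 controls and at 64.2, 18.2, 548 and 166 CPM in hSS1;Pbrm1-fl tumors, and its hSS2 value of 1.11 did not pass (adjusted p 0.098). B2m, the light chain, had values of 0.68 in hSS1 and 0.25 in hSS2 (adjusted p 0.44 and 0.70). Class I heavy chain genes are near-identical copies, so reads may be assigned among them wrongly.

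The hSS1 part of this group depended on 1 tumor. Without hSS1;Pbrm1-fl replicate 3 the median hSS1 effect over the 22 genes was 0.23 in place of 0.97, 1 gene was called in hSS1 and 5 had a called mean effect, while the hSS2 median was 0.75 as before. The same tumor held 40.1 CPM of the T cell receptor gene Trac, against 0.170 to 0.359 CPM in the other 3. Of 16 tested T, NK and B cell markers Trac alone was called in hSS1, with 10 positive and 6 negative effects. Their summed level was 8.66 to 19.8 CPM in hSS1 controls and 9.53 to 58.4 CPM (median 24.7) in hSS1;Pbrm1-fl tumors. The summed level of 14 MHC class II and dendritic cell genes was 53.9 to 256 CPM in hSS1 controls and 86.3 to 767 CPM (median 164) in hSS1;Pbrm1-fl tumors. In hSS2 that sum was 86.6 to 1810 CPM in controls and 125 to 2324 CPM in floxed tumors, and the T, NK and B cell sum was 7.38 to 1929 CPM and 14.6 to 615 CPM. The part of these cells in the class I levels was not tested. Of 40 interferon response genes, by edgeR none passed in the interaction (4 at an unadjusted p under 0.05) or in a single background (7 in hSS1 and 10 in hSS2 at an unadjusted p under 0.05; DESeq2 called 0 and 1), and 4 had a called mean effect, all higher.

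Markers of other cell types passed in few cases. Skeletal muscle genes had median effects of -2.84 in hSS1 and -0.95 in hSS2 with none called by edgeR in a single background (3 and 2 at an unadjusted p under 0.05). Their summed level ranged from 198 to 5710 CPM in hSS1 controls and from 283 to 138696 CPM (median 14867) in hSS2 controls. In floxed tumors it ranged from 198 to 863 CPM in hSS1 and from 194 to 48241 CPM (median 1104) in hSS2. Some tumors of both hSS2 groups thus held much muscle RNA. The mouse chromosome 14 genes within 20 Mb of Pbrm1 numbered 277 tested. Of these 3.25% passed in the interaction, 3.25% in hSS1 and 5.78% in hSS2, close to the 2.86%, 3.96% and 6.09% of all genes.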

How the data were processed

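Ribosomal RNA-depleted, directional RNA-seq libraries of mouse tumors were counted by the authors with STAR 2.7.11 and featureCounts 1.6.3 on mm10, per the submitters' processing notes. The annotation release, the strand setting and the handling of multiply mapped reads are not given in the sources used here. The deposited values are raw read counts per Ensembl gene in 2 tables (56980 genes for hSS2, 56941 for hSS1), and the 56854 genes in both were used, 52000 of them with a GENCODE symbol. From these counts all 46 libraries of 6 groups were fitted in edgeR 4.0.16 (R 4.3.3) with TMM factors, a filterByExpr minimum count of 10, and robust quasi-likelihood tests of the interaction, each effect and their mean, over 21725 genes at an adjusted p of 0.05. Standard errors are the log2 fold change divided by the root of F, and intervals are 95% intervals from them. Logged levels used a prior count of 2. Alternatives were DESeq2 1.42.0, limma 3.58.1 (voom with quality weights), RLE factors, no filter, limits on mouse numbers, and leaving out each tumor. The fit was also run on simulated counts, and the outcome is not reported here. Named genes were Pbrm1 and the PBAF subunits; up to 10 protein-coding genes each way with the smallest adjusted p in the interaction (at least 1 in log2 and 1 CPM); up to 8 each way for the shared response; and, per list, up to 4 by interaction p and up to 3 each way for each single effect. Some genes that this rule named are not reported here. Members and lists were chosen with earlier results of these data known. No 2 libraries of a group were duplicates: over 178 within-group pairs the smallest chi-square per gene was 18.6. Whether replicate tumors came from separate mice rests on reading the title numbers as mouse numbers. Totals of 10136872 to 19567840 counts per library limit the precision of genes under about 1 CPM.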

Additional observations from a re-analysis of the deposited data

Results flagged for a closer look

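For 19 genes the test of the difference itself found that the Pbrm1-fl effect differed between hSS1 and hSS2. The log2 interaction was 5.77 for Pdgfd, 2.49 for Cd59b, 3.53 for Sytl4, 2.05 for Glb1l, 8.17 for Mamdc2, 1.86 for Galk2, 4.58 for Ddx43, 5.63 for Steap4 and 1.305 for Chpf2. It was -3.87 for Prr15, -1.43 for Rragd, -6.30 for Tbr1, -1.29 for Pcbp4, -1.29 for Zdhhc21, -8.89 for Cpvl, -3.76 for Rundc3a, -1.17 for Mtmr14, -6.08 for Tubb3 and -2.91 for Tgfa. The fitted values of Mamdc2, Tbr1 and Cpvl depend on the prior count, since 1 hSS1 group of each held at most 6 counts per tumor.

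Single tumors stood far from the others of their group in 11 cases among 120 groups tested on log2 CPM, where chance flags about 1 in 20 groups. The hSS2 controls were not part of this test. In hSS1;Pbrm1-fl replicate 3, Steap4 was at 957 CPM, Ddx43 at 0.579 CPM, Cpvl at 0.0965 CPM, Rnf145 at 65.7 CPM and Brd7 at 47.1 CPM. The Cpvl value lies at the counting floor, and the other tumors of that group had no reads of it. In hSS1 controls, Cacybp was at 55.8 CPM in replicate 3 and Brd7 at 38.5 CPM in replicate 4. In hSS2;Pbrm1-fl tumors, Pbrm1 was at 141 CPM and Glb1l at 36.2 CPM in replicate 1, Rnf145 was at 68.1 CPM in replicate 2, and Dcc was at 1.10 CPM in replicate 7.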

How the results depend on the processing

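No paired analysis was run, because the titles give numbers that groups do not share and do not name litters. The paper states that littermates served as controls, so an unlabelled pairing may be ignored here. Counts of called genes follow in the order interaction, hSS1 effect, hSS2 effect and mean effect (622, 860, 1323 and 1602 as reported). At an adjusted p of 0.01 they were 61, 114, 400 and 407. DESeq2 gave 1195, 1546 and 2002, with 7 shared genes, and limma-voom 2754, 2536 and 2606. No filter on low counts gave 402 for the interaction. With hSS2 limited to mice of 2000 and over they were 6, 526, 101 and 608, with hSS1 limited to 1000 to under 2000 they were 57, 37, 832 and 310, with both limits 0, 17, 0 and 99 (by edgeR 2100 and 2372 at an unadjusted p under 0.05 where 0 passed; no other tool was run with these limits), and with the number range as a term 64, 364 and 375 for the first 3. Fits of each table on its own called 1 gene in hSS1. Leaving out single tumors gave 235 to 876, 304 to 1265, 851 to 1706 and 690 to 1868. The Pbrm1 interaction was 0.73 and called under limma-voom, and 0.38 to 0.74 without single tumors. Its hSS1 effect missed the threshold with hSS1 limited (-0.88), with both limits (-0.86) and in the table's own fit (-0.75), and was -0.90 to -0.54 without single tumors. Its hSS2 effect missed it with both limits (-1.12) and was -1.35 to -1.24 without single tumors. Directions turned for the hSS2 effect of Itga6 (-0.0575 by DESeq2, -0.0504 to 2.16 without single tumors, the lowest without hSS2;Pbrm1-fl replicate 3) and of Nkx6-1 (0.23 with hSS2 limited, 0.21 with both limits). Without hSS1;Pbrm1-fl replicate 3 they turned for the Gria4 interaction (-1.09 to 7.94 over single tumors left out) and for the hSS1 effects of Gria4 (-0.29 to 8.73) and Trac (-0.15 to 5.49). The causes were not tested. The sex term, the fit without chromosome 6 genes and the fit without hSS2 controls 1 and 9, whose chromosome 14 and 4 levels stood apart, were added after seeing the data.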
